A study of Mus musculus with 4 samples.

Results

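The transforming growth factor β genes examined here are the 3 ligands *Tgfb1*, *Tgfb2* and *Tgfb3*, their receptors *Tgfbr1*, *Tgfbr2* and *Tgfbr3*, and the 4 latent TGFβ binding proteins *Ltbp1* to *Ltbp4*. They were taken by gene symbol from tables of 46983 genes, in which the 10 symbols have 11 gene IDs because *Ltbp4* is listed under 2. Larynxes of E10.5 mouse embryos with 32 to 35 somites were pooled by 3, and RNA of 4 such pools was sequenced. The 2 *Shh*-/- pools (numbered 1 and 2) carry Shhtm1amc, a null allele kept on a Swiss Webster background, and the 2 WT pools (numbered 4 and 6) are Swiss Webster wild type. The genotype field of the mutant pools writes the line as Shh+/-, whereas the titles and the series design describe *Shh*-/- embryos, and that genotype is used here for the pools called mutant. Each pool mixes tissue of 3 embryos, so the spread within a group is that of 2 pools and not of single embryos.

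TGFβ is secreted as an inactive complex, in which the dimeric ligand stays bound to its own propeptide and the propeptide is in turn tethered to the matrix by a latent TGFβ binding protein. Once released by integrins, proteases or thrombospondin, the ligand binds the type II receptor TGFBR2, which phosphorylates the type I receptor TGFBR1, and this receptor activates SMAD2 and SMAD3. TGFBR3 (betaglycan) is a co-receptor that presents the ligand, TGFβ2 above all. The pathway is widely known for matrix production, smooth muscle differentiation and epithelial-to-mesenchymal transition (EMT), and whether it changes when Shh is lost is the question that the comparison addresses.

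The mutant libraries held 1.37 and 3.13 gigabases of aligned sequence and the WT libraries 2.85 and 2.97 gigabases, so *Shh*-/- pool 1 was the least deeply sequenced. As a check of the labels, *Shh* measured 10.4 and 10.8 TPM (abundance corrected for transcript length and scaled so that each library sums to 1000000) in the mutants and 23.7 and 42.1 TPM in WT (a log2 fold change of −1.49, limma adjusted p = 0.0895). Its HH target *Ptch1* measured 12.9 and 13.8 against 57.8 and 55.1 TPM (log2 fold change −2.00, standard error 0.12, limma adjusted p = 0.0319). Markers of foregut epithelium (*Epcam*, *Cdh1*, *Krt8*, *Nkx2-1* and others) and of its mesenchyme (*Pdgfra*, *Prrx1*, *Twist1* and others) were detected in every pool, with no listed marker at 0. The libraries are of whole tissue, in which a smaller number of cells of one type and less RNA in each of those cells cannot be told apart.

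The promoters of the ligands with the largest and the smallest difference between genotypes are shown, since they carry different core elements. Both windows are RefSeq sequence of GRCm38.p6 from 250 bases before the annotated start up to it, read 5′ to 3′ on the gene's strand. *Tgfb1* is on the plus strand (chr7:25686752-25687001) and *Tgfb2* on the minus strand (chr1:186705990-186706239). Capitals mark the GC box GGGCGG on either strand and the TATA box TATAAA.
Tgfb1: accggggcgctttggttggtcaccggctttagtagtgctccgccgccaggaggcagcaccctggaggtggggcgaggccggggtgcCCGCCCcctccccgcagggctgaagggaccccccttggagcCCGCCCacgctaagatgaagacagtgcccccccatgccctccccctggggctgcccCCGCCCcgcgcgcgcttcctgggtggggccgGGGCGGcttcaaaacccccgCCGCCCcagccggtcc
Tgfb2: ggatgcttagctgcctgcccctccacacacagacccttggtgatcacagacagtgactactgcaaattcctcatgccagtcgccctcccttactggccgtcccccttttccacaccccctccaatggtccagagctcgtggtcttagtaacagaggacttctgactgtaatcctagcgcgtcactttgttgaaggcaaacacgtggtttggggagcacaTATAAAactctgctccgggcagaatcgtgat
The *Tgfb1* window has a GC content of 75.2% with 5 GC boxes and no TATA box. The *Tgfb2* window has a GC content of 53.6%, no GC box and 1 TATA box that begins 31 bases before the start. Of all 32851 promoter windows searched, 32.7% hold a GC box and 12.4% a TATA box on either strand, and the median GC content is 52.4%. The GLI consensus GACCACCCA, counted on both strands, was in 0.225% of all windows and in none of the 12 windows of the 8 members with an entry. A match describes letters in these windows, and the absence of one says nothing about binding elsewhere.

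In WT larynx the type I receptor gene was the most abundant of the 10 and *Ltbp2* was near 0. *Tgfbr1* averaged 102.1 TPM in the WT pools, followed by *Ltbp1* at 33.8, *Tgfb2* at 26.6, *Ltbp4* at 13.4, *Tgfb1* at 11.6, *Tgfbr2* at 8.00, *Tgfbr3* at 6.29, *Tgfb3* at 5.23, *Ltbp3* at 4.40 and *Ltbp2* at 0.11 TPM. The ranges of the 2 pools overlapped between *Ltbp4* and *Tgfb1*, and for no other neighbors in this order. In the *Shh*-/- pools *Tgfb2* stood above *Ltbp1* and *Tgfb1* above *Ltbp4*, but the pools of both pairs overlapped, as did those of *Tgfbr3* and *Tgfb3*. TPM is corrected for length, which these comparisons between genes within a library need, but not for GC content. The GC content of the longest annotated transcripts ran from 41.0% for *Tgfbr1* to 62.2% for *Ltbp4*, and its part in this order was not tested.

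**Figure D1:**
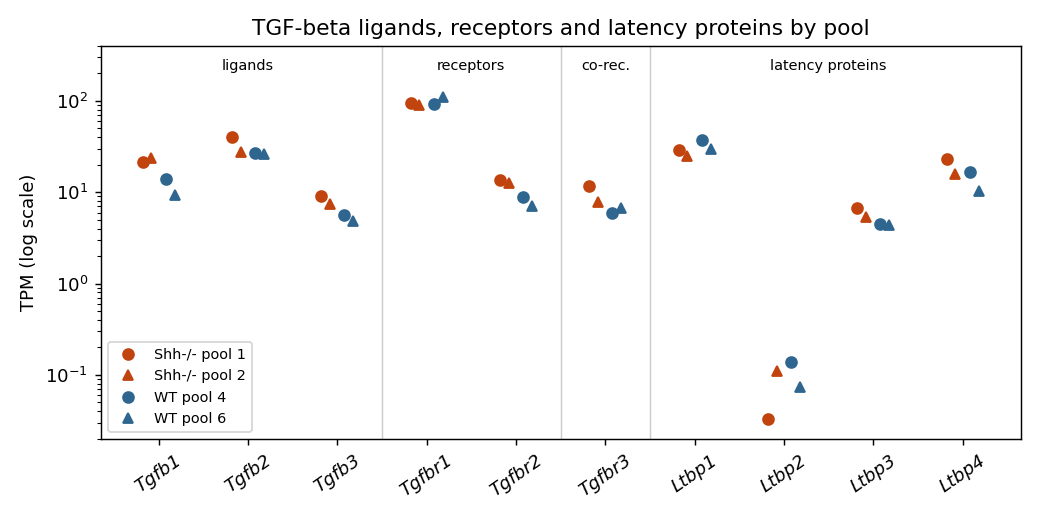
TPM of the 10 genes (y axis, log scale) in each of the 4 pools, grouped by role, with *Shh*-/- pools in red and WT pools in blue. *Tgfbr1* lies near 100 TPM in every pool, *Ltbp2* at 0.14 TPM or less, and *Tgfb1* is above 21 TPM in the mutants and at 14.0 TPM or less in WT.

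A mean of 1 TPM or more was required for a test. None of the 9 genes that reached it differed between genotypes at an adjusted p under 0.05 in limma, where 0.725% of the 16972 tested genes did. Without adjustment, *Tgfb1*, *Tgfb3* and *Tgfbr2* had a p under 0.05, which is 3 of 9 genes against 24.8% of all tested genes. All 3 were higher in the mutants, where 17.5% of tested genes had such a p in that direction and 7.22% in the other. This count depended on the scaling, since the 95% confidence interval of *Ltbp1* lay below 0 after median centring (−0.82 to −0.07), quantile normalization (−0.80 to −0.04) and the GC and length correction described below (−0.85 to −0.13), and that of *Tgfb3* reached below 0 after the correction (−0.04 to 0.84). Both *Shh*-/- pools lay above both WT pools for 6 of the 9 (38.0% of tested genes did so) and below both for *Ltbp1* (22.7%). In all, 7 of the 9 had a positive log2 fold change, against 58.3% of tested genes, and their median was 0.53 against 0.08 for all tested genes. The genes that leaned upward were the 3 ligands, *Tgfbr2*, *Tgfbr3*, *Ltbp3* and *Ltbp4*, while *Tgfbr1* and *Ltbp1* leaned downward. With log2(TPM + 1) of each library centred on its median, the median over all genes moved from 0.08 to −0.05, and the same 7 genes kept positive values from 0.18 to 0.79. After the GC and length correction the median over all genes stayed at 0.08. The values of these 7 genes were all smaller than before it, from 0.03 for *Ltbp3* to 0.81 for *Tgfb1*.

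*Tgfb1*, the ligand best known for immune regulation and vascular development, had the largest difference of the 10. This gene on chromosome 7 (mm10, 25687002 to 25705077, plus strand) measured 21.5 and 23.5 TPM in the mutants and 14.0 and 9.25 TPM in WT. The pools did not overlap, and the mean of the mutant pools was 1.94 times that of WT. The log2 fold change was 0.92 (95% confidence interval 0.35 to 1.49), with a limma adjusted p of 0.116. Leaving out 1 pool at a time gave 0.64 without WT pool 6 and 1.20 without WT pool 4, and the WT pools differed from each other. WT pool 6 also had the highest RNA integrity number (9.0, against 7.7 to 8.0 in the other pools) and the most RNA (310 ng, against 200 to 260 ng), and the part of these in the result was not tested.

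*Tgfb2*, the main ligand of heart and craniofacial development, is on chromosome 1 (186622792 to 186705989, minus strand). It measured 39.9 and 27.5 TPM in the mutants against 27.2 and 26.0 TPM in WT. Only pool 1 of the mutants was clearly above WT, and the log2 fold change of 0.31 (95% confidence interval −0.21 to 0.83, adjusted p = 0.377 from limma) became 0.05 without it. *Tgfb3*, known for its role in palate fusion, is on chromosome 12 (86056744 to 86079041, minus strand). Its values were 9.02 and 7.54 TPM in the mutants and 5.58 and 4.87 TPM in WT. The mutant pools were both higher, with a log2 fold change of 0.57 (95% confidence interval 0.11 to 1.04, adjusted p = 0.157 from limma). The listed span of *Tgfb3* overlaps that of *Ttll5* on the other strand, which was at 11.5 to 15.1 TPM, and whether the counting used strand is not given in the sources used here.

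Summed over the 3 ligands, the *Shh*-/- pools held 70.5 and 58.6 TPM and the WT pools 46.8 and 40.2 TPM. *Tgfb2* made up most of the ligand RNA in 3 pools, with 56.7% in *Shh*-/- pool 1 and 58.1 and 64.8% in WT, while it was 47.0% in *Shh*-/- pool 2. The share of *Tgfb1* was 30.5 and 40.2% in the mutants and 30.0 and 23.0% in WT. *Tgfb3* took 12.8 and 12.9% in the mutants and 11.9 and 12.1% in WT. The *Tgfb1* shares of *Shh*-/- pool 1 and WT pool 4 were nearly equal, and the mean difference of 8.83 percentage points lay between 4.03 and 13.6 with 1 pool left out. No test was run on these shares, because the smallest p of an exact two-sided permutation test is 0.33 with 2 pools in each group.

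**Figure D2:**
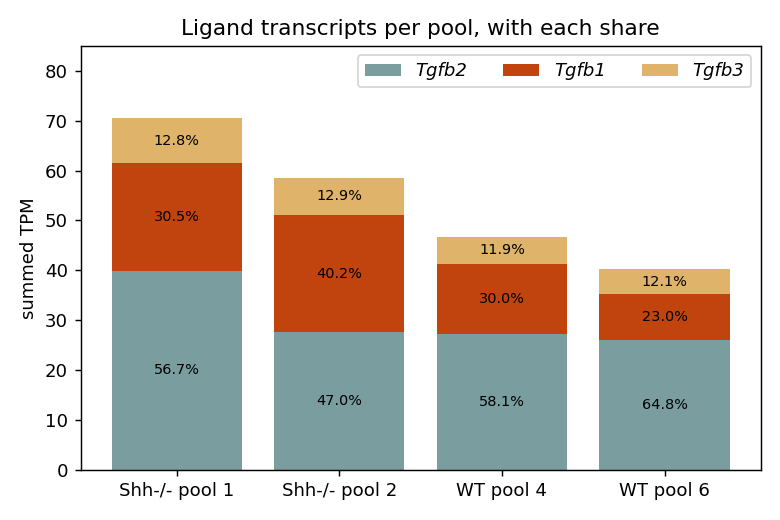
Stacked bars of the TPM of *Tgfb2*, *Tgfb1* and *Tgfb3* (y axis) in each pool, with the share of each ligand in the bar. The bars of the *Shh*-/- pools reach 70.5 and 58.6 TPM and those of the WT pools 46.8 and 40.2 TPM.

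The receptors did not lean one way. *Tgfbr1*, which encodes the type I receptor kinase (chromosome 4, 47353222 to 47414931, plus strand), was at 95.6 and 90.0 TPM in the mutants and 92.6 and 111.5 TPM in WT. These pools overlapped, and the log2 fold change was −0.13 (95% confidence interval −0.46 to 0.20, adjusted p = 0.543 from limma). *Tgfbr2*, the gene of the type II receptor that binds the ligand first (chromosome 9, 116087698 to 116175363, minus strand), was at 13.5 and 12.5 TPM against 8.96 and 7.04 TPM in WT. Both mutant pools were higher, by a log2 fold change of 0.64 (95% confidence interval 0.19 to 1.10, adjusted p = 0.134 from limma). The ratio of *Tgfbr1* to *Tgfbr2* TPM was therefore 7.09 and 7.21 in the mutants and 10.3 and 15.8 in WT. The WT pools differed widely from each other in this ratio, which was neither tested nor corrected for GC content and length. That correction, described below, moved *Tgfbr1* from −0.13 to 0.064 and *Tgfbr2* from 0.64 to 0.565, so the 2 genes came closer together. *Tgfbr3*, the gene of the co-receptor betaglycan (chromosome 5, 107106570 to 107289629, minus strand), was at 11.7 and 7.87 TPM against 5.93 and 6.64 TPM. Its pools did not overlap, although *Shh*-/- pool 2 was close to WT, and the log2 fold change was 0.54 (95% confidence interval −0.04 to 1.13, adjusted p = 0.223 from limma) and 0.28 without *Shh*-/- pool 1.

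Among the latent TGFβ binding proteins, *Ltbp1* and *Ltbp4* were the main transcripts, with log2 fold changes of opposite sign, neither of which passed the test. *Ltbp1*, whose protein tethers all 3 latent ligands to the matrix (chromosome 17, 75005568 to 75392512, plus strand), was at 28.9 and 24.9 TPM in the mutants and 37.8 and 29.9 TPM in WT. Both mutant pools were lower, pool 1 only just, with a log2 fold change of −0.32 (95% confidence interval −0.75 to 0.11, adjusted p = 0.299 from limma) and −0.15 without WT pool 4. *Ltbp4*, whose protein also takes part in elastic fiber assembly (chromosome 7, 27305136 to 27337692, minus strand), was at 23.4 and 15.9 TPM against 16.5 and 10.3 TPM. Its pools overlapped, and the log2 fold change was 0.53 (95% confidence interval −0.22 to 1.29, adjusted p = 0.311 from limma). It was 0.22 without WT pool 6, 0.27 without *Shh*-/- pool 1 and 0.85 without WT pool 4. The other gene ID under this symbol spans 27311715 to 27333604 inside the gene and is listed at 2.23 TPM in *Shh*-/- pool 2 and at 0 in the other pools. With both IDs summed, an alternative chosen after the data were seen, the log2 fold change was 0.62.

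*Ltbp3*, which encodes a further binding protein of the latent complex (chromosome 19, 5740904 to 5758532, plus strand), was at 6.73 and 5.32 TPM in the mutants and 4.44 and 4.35 TPM in WT. The pools did not overlap (log2 fold change 0.37, 95% confidence interval −0.11 to 0.86, adjusted p = 0.285 from limma), and without *Shh*-/- pool 1 the value was 0.23. *Ltbp2*, whose protein binds fibrillin but not the latent ligand (chromosome 12, 84783212 to 84876532, minus strand), was at 0.033 and 0.11 TPM in the mutants and 0.14 and 0.074 TPM in WT, below the minimum for a test. The 4 genes together, without the second *Ltbp4* ID, summed to 59.0 and 46.3 TPM in the mutants and to 58.9 and 44.6 TPM in WT, so the summed level overlapped. *Ltbp1* was 48.9 and 53.8% of this sum in the mutants and 64.2 and 67.0% in WT, and *Ltbp4* 39.6 and 34.4% against 28.0 and 23.0%. The shares of these 2 genes did not overlap between genotypes, but they were not tested. With 2 pools in each group, the smallest p of an exact two-sided permutation test is 0.33. The shares were also not corrected for GC content and length.

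The differences of *Ltbp3* and *Ltbp4* moved most when each library was corrected for the GC content and length of the transcripts. Their longest annotated transcripts have a GC content of 58.3 and 62.2%, against 41.0% for *Tgfbr1*. The log2 fold change of *Ltbp3* went from 0.37 to 0.03 and that of *Ltbp4* from 0.53 to 0.12, while *Ltbp1* went from −0.32 to −0.49 and *Tgfbr1* from −0.13 to 0.06. *Tgfb1* (0.81), *Tgfbr2* (0.56), *Tgfbr3* (0.47), *Tgfb3* (0.40) and *Tgfb2* (0.28) kept most of their difference, and again none passed an adjusted p of 0.05.

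**Figure D3:**
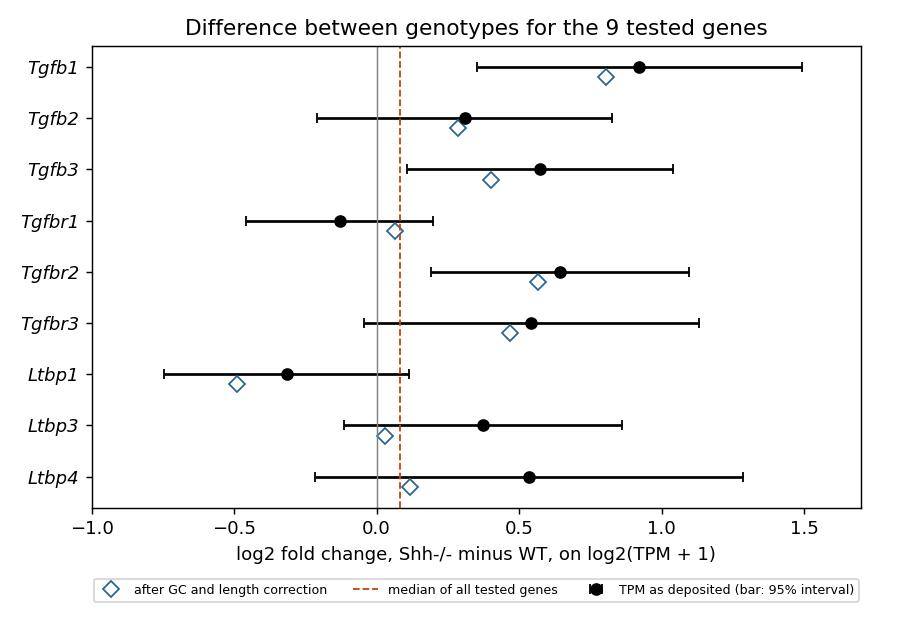
Log2 fold change of the 9 tested genes (x axis, *Shh*-/- minus WT on log2(TPM + 1)), with 95% confidence intervals from limma as bars and the value after correction for GC content and length as open diamonds. The dashed line is the median of all tested genes (0.08), and the corrected values of *Ltbp3* and *Ltbp4* lie close to it.

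Of 69 other genes of the pathway, in 5 lists by role, 66 were abundant enough for a test. In these, 2 were called higher in the mutants and 0 lower (3.03% called), and 53 had a positive log2 fold change and 13 a negative one. Over all tested genes 0.725% were called (0.56% higher and 0.165% lower) and 58.3% were positive, and these shares are the background of each list below. The called genes were *Bgn* and *Tagln*. *Bgn* encodes biglycan, a matrix proteoglycan that binds TGFβ, and rose from 21.5 and 20.9 TPM in WT to 51.5 and 48.5 TPM (log2 fold change 1.20, standard error 0.11, limma adjusted p = 0.0422). *Tagln* encodes the actin-binding protein transgelin of smooth muscle and rose from 116.4 and 120.4 to 231.5 and 207.9 TPM (log2 fold change 0.88, standard error 0.10, limma adjusted p = 0.0493). With any 1 of the 4 pools left out, both calls were lost, with adjusted p from 0.106 to 0.156 for *Bgn* and from 0.0988 to 0.195 for *Tagln*. With all pools, the *Bgn* call was also lost without a filter on TPM (adjusted p = 0.146 from limma) and without the variance trend (0.0535). The *Tagln* call was lost in 7 further settings, with limma adjusted p from 0.0506 after quantile normalization to 0.146 without a filter.

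Genes of latent TGFβ activation had a median log2 fold change of 0.33, with 11 of 14 tested genes positive (58.3% of all tested genes were) and none called. After median centring it was 0.20, against −0.05 for all tested genes. *Mmp9*, a secreted protease, was at 4.08 and 2.82 TPM in the mutants and 0.43 and 0.095 TPM in WT (a log2 fold change of 1.81, adjusted p = 0.0697 from limma). *Itgb5*, an integrin subunit that pairs with αv, was at 72.4 and 63.8 against 37.4 and 34.7 TPM (0.90, adjusted p = 0.0602). *Itgb8*, the β subunit of another activating integrin, was at 5.32 and 3.50 against 5.49 and 7.57 TPM, the one gene of this list with both mutant pools below both WT pools (log2 fold change −0.48, adjusted p = 0.305). *Plg*, chosen after its values were seen, was listed at 17.7 TPM in WT pool 4 and at 0 in the other pools.

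Matrix partners of the latent complex had a median of 0.55, with 8 of 10 tested genes positive (58.3% of all) and 1 called (0.725% of all). The median was 0.33 after the GC and length correction. Besides *Bgn*, *Adamtsl2*, which encodes a fibrillin-associated matrix protein, was at 2.98 and 2.27 TPM against 0.45 and 0.93 TPM (log2 fold change 1.10, adjusted p = 0.114 from limma). The fibrillin gene *Fbn2* was lower, at 53.3 and 54.0 against 73.3 and 70.9 TPM (−0.42, adjusted p = 0.114). *Dcn*, the gene of decorin, was lower too, at 43.6 and 65.6 against 96.5 and 137.9 TPM (−1.09, adjusted p = 0.116).

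Accessory receptors and ligand traps had a median of 0.11 beside 0.08 for all tested genes, and both were below 0 after median centring (−0.02 and −0.05). The GC and length correction gave 0.05, with 0.08 for all tested genes. Of the 8 tested genes, 7 were positive and none was called. *Eng*, which encodes the endothelial co-receptor endoglin, was at 25.5 and 34.0 TPM in the mutants and 15.8 TPM in each WT pool (log2 fold change 0.86, adjusted p = 0.0972 from limma). *Vasn*, the gene of the ligand trap vasorin, was at 18.3 and 18.4 against 14.8 and 12.8 TPM (0.39, adjusted p = 0.187). *Bambi*, which encodes a pseudoreceptor without a kinase domain, was at 27.2 and 24.8 against 28.5 and 31.4 TPM (−0.20, adjusted p = 0.379).

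SMADs and intracellular regulators had a median of 0.22, with 11 of 16 tested genes positive, near the 58.3% of all tested genes, and none called. The median was 0.14 after the GC and length correction and 0.09 after median centring. *Smad7*, the inhibitory SMAD that the pathway itself induces, was at 24.2 and 18.9 TPM against 17.7 and 9.47 TPM (log2 fold change 0.68, adjusted p = 0.255 from limma). *Nedd4l*, a ubiquitin ligase for activated SMADs, was at 9.20 and 7.16 against 4.76 and 4.87 TPM (0.65, adjusted p = 0.144). *Skil*, another feedback gene and a SMAD co-repressor, was lower at 37.0 and 34.2 against 46.8 and 60.5 TPM (−0.57, adjusted p = 0.138), and *Zfyve9*, which anchors SMADs at the receptor, was at 22.7 and 24.1 against 25.6 and 29.2 TPM (−0.21, adjusted p = 0.354). The feedback genes *Smad7* and *Skil* thus had values on opposite sides of 0.

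The list of genes that TGFβ induces in many cell types had a median of 0.42, with 16 of 18 tested genes positive (58.3% of all) and 1 called (0.725% of all). *Postn*, which encodes the matrix protein periostin, was at 118.8 and 67.8 TPM in the mutants and 16.2 and 20.1 TPM in WT (a log2 fold change of 2.25, adjusted p = 0.0595 from limma). *Tgfbi*, named for its induction by TGFβ, was at 136.2 and 96.4 against 43.5 and 44.1 TPM (1.37, adjusted p = 0.0602). *Lox*, the gene of the crosslinking enzyme lysyl oxidase, was lower at 1.73 and 4.17 against 6.85 and 5.40 TPM (−0.92, adjusted p = 0.2), and *Fstl3*, which encodes an activin antagonist, was lower at 1.92 and 2.01 against 3.42 and 3.48 TPM (−0.59, adjusted p = 0.16). The lists were drawn up with earlier results of these libraries known, in which *Tagln* and *Bgn* had been called, so the counts are no independent evidence of a direction.

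**Figure D4:**
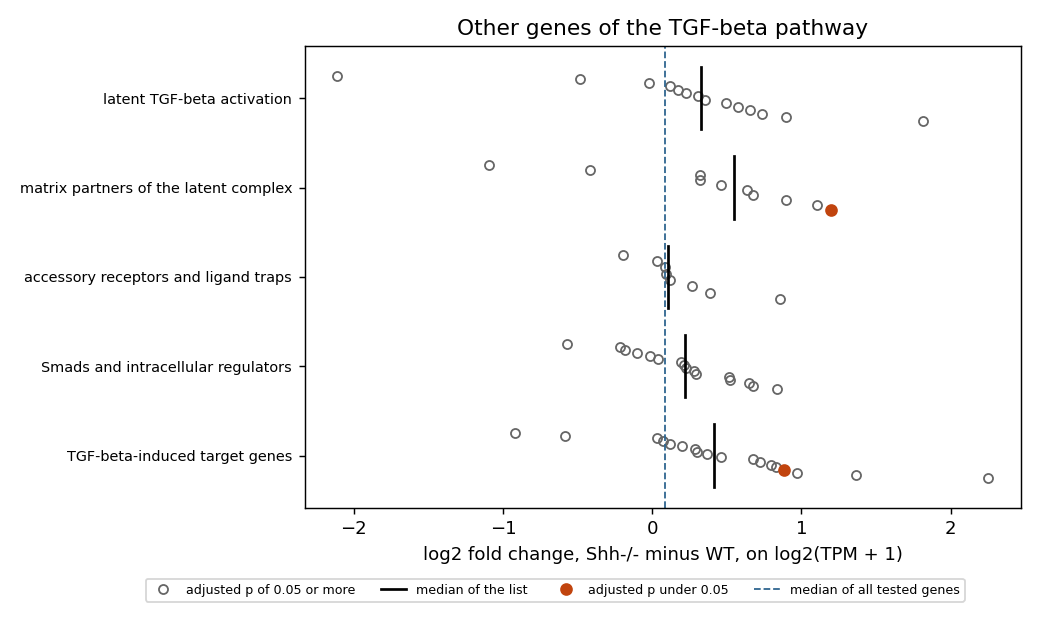
Log2 fold change (x axis, *Shh*-/- minus WT on log2(TPM + 1)) of 66 tested pathway genes in 5 lists, 1 circle per gene, with the median of each list as a black bar. *Bgn* and *Tagln*, filled, are the genes under an adjusted p of 0.05, and the medians run from 0.11 to 0.55 against 0.08 for all tested genes (dashed line).

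Markers of the labelled tissue and of other cell types differed in level between the same pools. Of 10 foregut epithelium genes, 5 were lower in both mutant pools than in both WT pools (22.7% of all tested genes were) and 3 were higher (38.0%), with none called. The lower ones include *Shh*, the mutated gene itself. *Foxa2*, which encodes a transcription factor of foregut endoderm, was at 5.34 and 9.12 against 29.2 and 39.8 TPM (adjusted p = 0.0602 from limma), and *Nkx2-1*, the respiratory lineage factor, at 6.16 and 3.61 against 15.9 and 17.9 TPM (adjusted p = 0.0715). *Epcam*, an epithelial adhesion gene, was at 123.4 and 100.8 against 90.3 and 86.4 TPM (adjusted p = 0.205). Summed TPM of 8 endothelial genes was 324.0 and 367.9 in the mutants and 223.8 and 218.1 in WT, with 7 of 8 genes above WT in both pools and 1 called. Over all tested genes, 38.0% lay above in this way and 0.725% were called. The sum over 6 smooth muscle genes, which shares *Tagln*, *Acta2* and *Cnn1* with the target list, was 479.0 and 460.1 against 259.9 and 268.9 TPM. Of these 6 genes, 4 were above WT in both pools and 1 was called, while *Myh11* and *Actg2* overlapped. Sums over 8 neuron genes (785.4 and 871.9 against 208.8 and 142.0 TPM), 8 striated and cardiac muscle genes (153.4 and 223.5 against 53.6 and 63.0 TPM) and 7 neural crest genes (157.4 and 143.5 against 98.4 and 81.0 TPM) were higher in both mutant pools. All 8 neuron genes were above WT in both pools and 5 were called. Of the 8 striated and cardiac muscle genes, 6 were above and 2 called, while the skeletal muscle factors *Myod1* and *Myog* overlapped. All 6 tested neural crest genes were above and 0 called. Macrophage genes (13.0 to 19.6 TPM in *Shh*-/- and 10.4 to 15.9 TPM in WT) and erythroid genes (10580 to 16187 and 14508 to 16803 TPM) overlapped between genotypes. Mesenchyme markers were split, with *Twist1* at 147.0 and 125.0 against 46.1 and 43.8 TPM and *Foxf1* at 0.85 and 9.57 against 72.3 and 64.6 TPM. No listed marker was at 0 in all pools, and the part of these cells in the values of the TGFβ genes was not tested.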

How the data were processed

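RNA was sequenced from 4 libraries of pooled E10.5 mouse larynx, 2 *Shh*-/- and 2 WT. Poly(A) RNA went into stranded libraries, and the authors aligned the single-end reads to mm10 with HISAT2 2.1.0 and assembled genes with StringTie 1.3.6. The deposited tables hold coverage, which is not normalized between libraries. The authors' FPKM is this signal scaled by aligned bases, and the deposited TPM is FPKM scaled to a sum of 1000000 per library. No read counts were used, and no counting interval was computed. All 37 mitochondrial genes are listed at 0, so a 0 can be a failed estimate. Depth is the commonest ratio of coverage to FPKM.

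TPM was summed per gene ID. Genes averaging 1 TPM or more (16972) were fitted as log2(TPM + 1) in limma 3.58.1 (R 4.3.3, eBayes with trend), *Shh*-/- minus WT without covariates, with Benjamini-Hochberg adjustment over all of them. This scale understates differences of low genes. Transcript length and GC content come from GENCODE M21 (46488 of 46983 IDs matched), coordinates from the deposited tables. The fit was also run on simulated data with independent noise per gene. Those data carry no depth or GC differences between libraries, so that run does not vouch for the calls here. All 10 members are named, and from each pathway list the called genes and the 2 largest positive and negative differences whose pools do not overlap. *Shh* and *Ptch1* check the labels. Members and lists were chosen with earlier results of these data known.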

Additional observations from a re-analysis of the deposited data

How the results depend on the processing

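None of the 10 TGFβ genes was called under any of 14 other settings, and 7 or 8 of the 9 tested ones had a positive log2 fold change. Of 127 alternative log2 fold changes of these 9 genes, 125 kept their sign and 2 reversed, both of *Tgfbr1* (0.064 after the GC and length correction and 0.002 without WT pool 6, where the range with 1 pool left out was −0.263 to 0.002). A log2 fold change cannot move where only the TPM filter, the gene set, the variance trend or the threshold was altered. Such alternatives kept their sign by construction and are part of the 125, so this count overstates how stable the signs were. The *Tgfb1* value lay between 0.64 and 1.20 in these settings, and its limma adjusted p between 0.0998 and 0.344. The number of genes called among all tested was 123 and moved to 69 with a pseudocount of 0.1, 0 without a filter on TPM (5011 at an unadjusted p under 0.05), 73 after the GC and length correction, 189 among protein-coding genes and 858 at an adjusted p under 0.10. With 1 pool left out it was 0 to 16 (16 without WT pool 6, and 0 without each other pool, with 2800 to 3761 at an unadjusted p under 0.05), where the lone pool of a group is assumed to vary like the other group. The cause of these shifts was not tested. With 1 pool left out, the *Tgfb1* share of ligand TPM differed by 4.03 to 13.6 percentage points, that of *Tgfb2* by −14.5 to −4.79 and that of *Tgfb3* by 0.70 to 0.90. No paired analysis was possible because the pools carry no shared numbers. With 2 pools per group and no counts, the precision rests on the spread between pools, and no counting error could be given.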
